A study of Mus musculus with 11 samples.

Results

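Xist pulldown signal was called at 2676 autosomal regions in both libraries of female mouse epiblast-like cells (EpiLCs) at day 2 of differentiation and in neither library at day 4. These regions, called members here, were chosen by the peak lists themselves. All peaks of the 4 EpiLC lists that shared at least 1 bp were merged, and a merged region was kept when it held a peak of both day 2 (D2) lists and no peak of either day 4 (D4) list. This gave 2676 of 11561 merged regions, or 23.1%. That share is set by the rule and by the length of the lists, and nothing is read from it.

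In female mammals the noncoding RNA Xist spreads over one X chromosome and brings silencing factors to it, among them SPEN and Polycomb complexes. In mouse embryonic stem cells both X chromosomes are active, and Xist is switched on as the cells leave the naive state and take on features of the epiblast. The X chromosome from which Xist is made is its main known site of action. Autosomal sites of contact, to which these lists are restricted, are therefore measured in cells that are starting X inactivation (EpiLCs) and in cells that completed it long before (female fibroblasts).

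The series mapped Xist by RNA antisense purification and DNA sequencing (RAP-seq), in which biotinylated antisense probes pull Xist and the crosslinked DNA out of sonicated, DNase-treated chromatin. EpiLCs were made from female embryonic stem cells kept in 2i and LIF and then moved to Activin A and bFGF, for 2 days (n = 2 libraries) or 4 days (n = 2 libraries). Female and male mouse embryonic fibroblasts (MEFs), grown in serum, gave 1 library each. No other agent was given to any group, and the labels name no strain, allele or clone. The labels mark replicate 1 of both days as a re-analysis of earlier data, and do not say whether replicates are separate cultures. A spread between them may thus be technical. Male cells do not normally express Xist, so the male MEF list shows background of the pulldown in fibroblasts. There was no male EpiLC library. The files hold no expression values, so the labelled cell types could not be checked against marker genes.

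The lists differ in length, which bears on every statement about D4. The D2 lists held 8227 and 7544 peaks in replicates 1 and 2, and the D4 lists held 1553 and 1148. The female MEF list held 1020 and the male MEF list 326. All lists lie on chromosomes 1 to 19. Sequencing depth is unknown for each library. A region without a D4 peak is one in which no D4 signal passed the peak caller's threshold, and a lower signal at D4 cannot be told apart from a less sensitive D4 library. When each EpiLC list was reduced to its 1148 strongest peaks, 212 regions met the rule, against 124 regions of both D2 lists with a D4 peak.

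**Figure D1:**
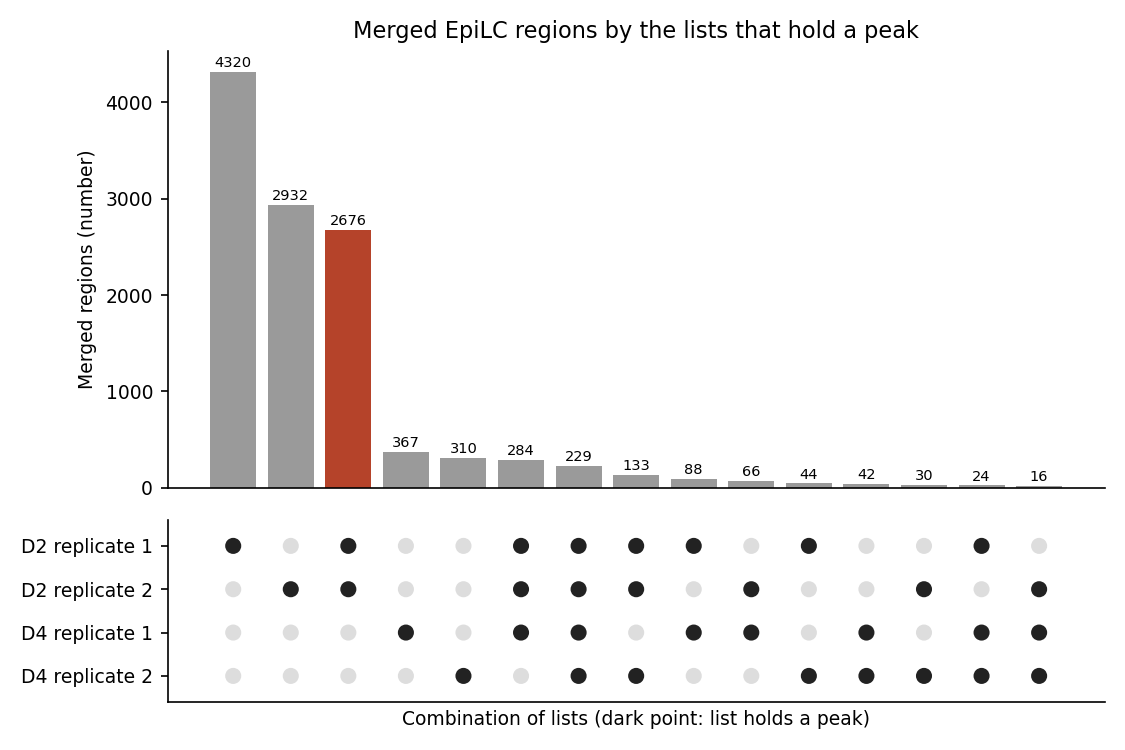
Number of merged EpiLC regions (bars) for each combination of lists that hold a peak of the region (dark points below). The red bar is the 2676 regions of both D2 lists and no D4 list. They follow the 4320 and 2932 regions of a single D2 list in number.

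The regions of D2 only made up most of what the D2 replicates shared. Both D2 lists held a peak in 3322 merged regions, and 80.6% of these had no D4 peak. The other 646 touched a D4 peak, 229 of them in both D4 lists. Lacking a D4 peak is not particular to replicated regions. Among regions of a single D2 list it was more common still, as 7252 had no D4 peak and 268 had one. Of the D2 peaks, 2903 of replicate 1 (35.3%) and 3268 of replicate 2 (43.3%) lay in the regions of D2 only. These peaks made up 40.5% and 40.3% of the length called in the respective list, so the contribution in length was close between replicates.

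Members were mostly several kilobases long and weakly enriched. Their median length was 8880 bp, with quartiles of 4965 and 15810 bp and a range from 505 bp to 391 kb. Together they spanned 37.5 Mb. There were 95 members of at least 50 kb and 23 of at least 100 kb. The deposited fold enrichment, given as a linear ratio to the background that MACS2 estimates, had a median of 2.63 in replicate 1 (quartiles 2.55 and 2.74) and 2.83 in replicate 2 (2.74 and 2.95). These are the authors' values for each peak. The strongest peak inside a member was taken for each list. Fold enrichment was lowest at 2.18 and 2.38 and highest at 4.86 and 5.31 in replicates 1 and 2, whereas the lists as a whole reached 14.1 and 11.8. Over all peaks of these lists the median was 2.61 and 2.80, close to that of members.

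Most members sat close to the limit at which peaks were accepted. Each D2 list ended at a deposited −log10 q (the caller's adjusted significance, higher for stronger peaks) of 1.3, and the median of members was 1.67 in replicate 1 and 1.60 in replicate 2. A −log10 q under 2 was found for 81.4% of members in replicate 1 and 85.7% in replicate 2. Only 155 members reached 2 in both lists, and 18 reached 3 in both. Other D2 regions lay near the limit too. Regions of both D2 lists with a D4 peak had a median −log10 q of 1.81 and 1.75 in replicates 1 and 2. For regions of 1 D2 list only it was 1.51 and 1.46. The share of D2-replicated regions with no D4 peak also fell with strength, given here as a description since the lists chose the members. Strength is the highest −log10 q among the D2 peaks of a region. Regions with a D4 peak were longer and could hold more D2 peaks, and the part this plays was not tested. Of the 278 D2-replicated regions with a −log10 q of at least 2 in both D2 lists, 55.8% had no D4 peak. Of the 45 with at least 3, it was 40%, against 80.6% of all.

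Within members the replicates often differed in extent. A single peak of each list made up 2184 members (81.6%). More peaks of replicate 2 than of replicate 1 were found in 336 members, and the reverse in 112, so that where the lists differed replicate 2 was usually the more broken up. Replicate 1 covered a median of 87.3% of a member and replicate 2 a median of 59.8%, and replicate 1 covered more than replicate 2 in 1744 members (65.2%). The segment called in both lists was a median of 2536 bp, or 32.6% of the member. It was at least 50% of the member in 747 and under 10% in 425. The shared segments summed to 16.1 Mb of the 37.5 Mb. Across members the fold enrichments of the replicates were weakly related (Spearman 0.292 over 2676 members, which share their libraries). The rule left a narrow range of fold enrichment, so this value does not measure agreement between the whole lists. Length was hardly related to fold enrichment (Spearman -0.09 in replicate 1 and 0.02 in replicate 2).

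The 10 members of highest rank by fold enrichment were mostly short sites made of 1 peak per list, far from D4 peaks. The first was chr7:91835120-91838382, enriched 4.76-fold in replicate 1 and 5.31-fold in replicate 2. Replicate 1 covered only 264 bp of its 3263 bp. It shared the first place with chr15:44254390-44260022 (4.86 and 4.55), whose nearest other member was 5934 kb away and whose nearest D4 peak was 13266 kb away. The third was chr16:45156344-45159478, at 4.00 and 4.03.

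Both replicates gave nearly the same value at the next pair of sites, both on chromosome 14. There, chr14:22318739-22320451 (3.88 and 3.88) and chr14:78936415-78937164 (3.88 and 3.87) spanned 1713 and 750 bp, and 86.9% and 87.2% of that length was called in both lists. At chr6:146989068-146992195 the values were 3.66 and 4.03, and at chr7:128177610-128178774 they were 3.85 and 3.70. In each of these 4 sites a single peak per list made up the region.

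The last 3 of the 10 lay within 100 kb of another member. On chromosome 13, chr13:63916175-63916890 was read at 3.38 and 4.51, the widest split between replicates among the 10, and chr13:63521576-63537469 at 3.41 and 3.85. The nearest D4 peak was 128 and 127 kb away, the smallest distances among the 10. On chromosome 7, chr7:91743189-91757880 (3.45 and 3.85) lay 77.2 kb before the first-ranked member. None of the 10 overlapped a peak of either MEF list.

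The members with a fold enrichment of at least 3 in both D2 lists, a limit set after the values were seen, were also shorter and farther apart than the rest. They numbered 100 and had a median length of 3857 bp, against 9050 bp for the other 2576 members. Their nearest other member was a median of 144 kb away, against 19.6 kb, and 45% had another member within 100 kb, against 78.8%. Of these 100, 0 overlapped a female MEF peak and 0 a male one, and 3 counts of 100, or 3%, are taken as the limit that a count of 0 allows, counting error only. Among the other members 101 (3.92%) and 42 (1.63%) did. Shorter regions also have less room to overlap a peak. Of all members from 2 to 5 kb, the class that holds the median of 3857 bp, 1.89% overlapped a female MEF peak. The part that length plays was not tested.

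**Figure D2:**
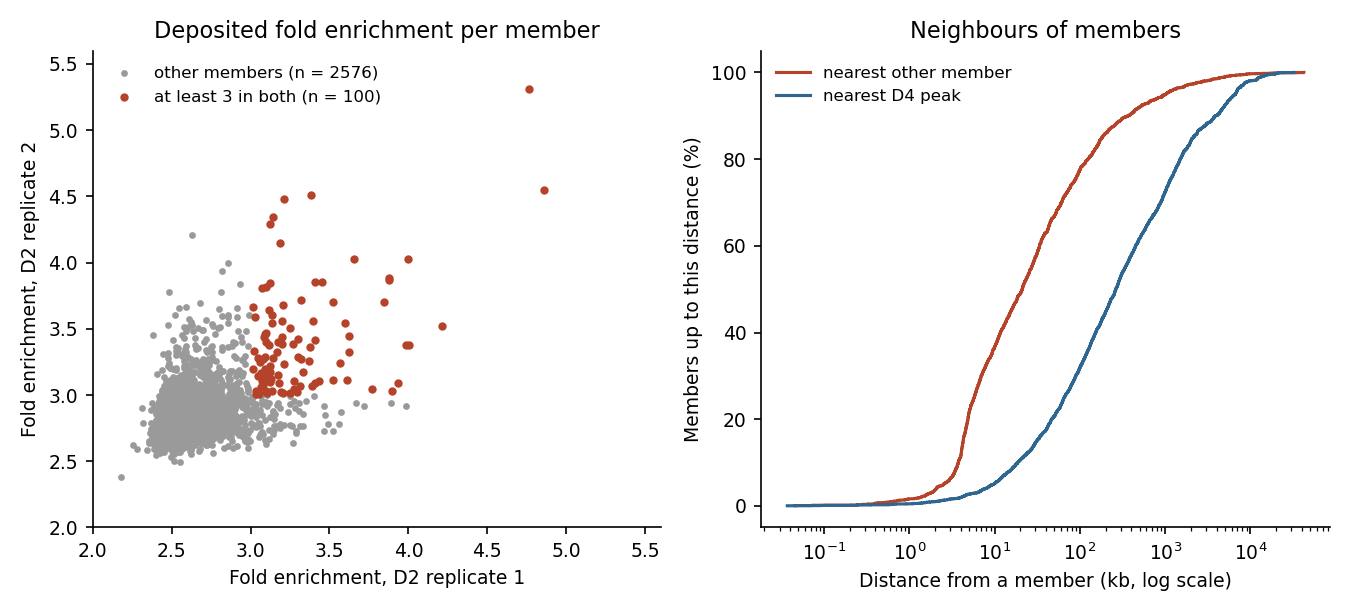
Left, deposited fold enrichment of each member in D2 replicate 1 (x axis) and replicate 2 (y axis), with the 100 members of at least 3 in both in red. Right, cumulative percentage of members by distance to the nearest other member (red) and to the nearest D4 peak (blue), in kb on a log scale, with medians of 21.1 and 264 kb.

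The 10 longest members were made of 1 to 4 peaks in replicate 1 and 1 to 10 in replicate 2, at modest fold enrichment. The longest was chr11:96220942-96612082, which spanned 391 kb (2.87-fold and 3.06-fold), and 87.7% of it was called in both lists. It was a single peak in replicate 1 and 5 peaks in replicate 2. The second was chr12:80905824-81227500 (322 kb, 2.73 and 3.23), shared over 91.4%. The third was chr7:105470564-105734048 (263 kb, 2.72 and 3.00), 1 peak in replicate 1 and 7 in replicate 2.

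Chromosomes 11 and 2 held 5 of the 10 longest. Besides the first, chromosome 11 held chr11:78808849-79042347 (233 kb, 2.75 and 3.10) and chr11:94684017-94856592 (173 kb, 2.64 and 2.95). The latter was 1 peak in replicate 1 and 10 in replicate 2, the largest number of peaks of a list in any member. Chromosome 2 held chr2:128080460-128278669 (198 kb, 2.67 and 3.36) and chr2:127664476-127820094 (156 kb, 2.78 and 3.03), which lie near each other.

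The other 3 were of 146 to 158 kb. They were on chromosome 18 at 38970007 to 39127721 (2.72 and 3.11), at chr15:102591199-102743813 (2.69 and 2.90) and at chr9:66488063-66634288 (2.80 and 2.98). The chromosome 9 member was 1 peak in each list and was shared over 99.4% of its length, the most of the 10. Its nearest D4 peak was 46.6 kb away, whereas that of the chromosome 18 member was 5496 kb away. None of the 10 longest overlapped a female MEF peak, and 2 overlapped a male MEF peak. These were the chromosome 12 member, where 1508 bp were covered at a male fold enrichment of 3.84, and the chromosome 11 member starting at 78808849, where 238 bp were covered at 2.88.

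Regions that also had a D4 peak were longer. Their median length was 20685 bp, and 75 of 646 reached 100 kb, against 23 of 2676 members. Among D2-replicated regions the share with no D4 peak was 92.6% up to 2 kb, 90.5% from 2 to 5 kb and 90.8% from 5 to 10 kb. It was 80.8% from 10 to 20 kb, 68.3% from 20 to 50 kb and 38.3% above 50 kb. A long region has more bases at which it can touch a D4 peak. A region with a D4 peak also includes that peak and any D2 peaks it joins, so part of the greater length can come from the merging. Neither was tested apart from signal. Median fold enrichment of the regions with a D4 peak was 2.70 and 2.91 in D2 replicates 1 and 2, against 2.63 and 2.83 in members. These values, and the ranks by fold enrichment, use the highest D2 peak of a region. A longer region can hold more peaks to choose from, and the part this plays was not tested. By rank of fold enrichment, members made up 6 of the first 20 D2-replicated regions, 23 of the first 50 and 54 of the first 100. By length they made up 9 of the first 50.

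**Figure D3:**
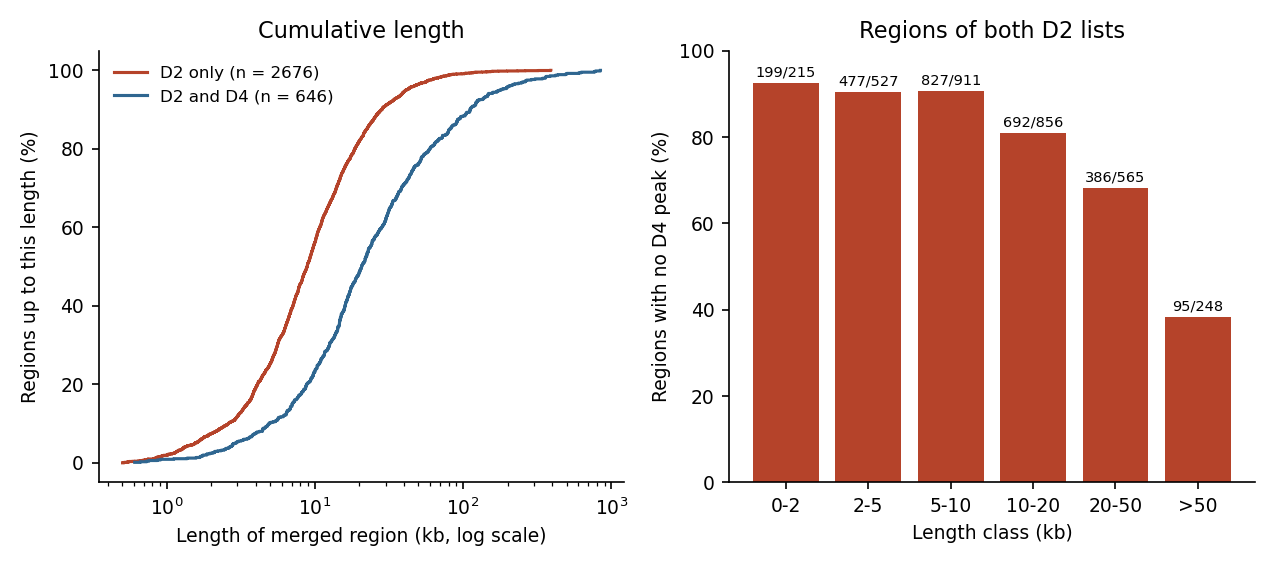
Left, cumulative percentage of regions by length (kb, log scale) for the 2676 members (red) and the 646 regions of both D2 lists with a D4 peak (blue). Right, percentage of D2-replicated regions that had no D4 peak in 6 length classes, with counts above the bars. The share falls from 92.6% in the shortest class to 38.3% in the longest.

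Members occurred on every autosome, at an average of 1.15 per Mb of chromosome extent, measured from the outermost peaks of the 6 lists. Chromosome 9 had the highest density (279 members, 2.30 per Mb), followed by chromosomes 19 (118, 2.04 per Mb) and 4 (214, 1.46 per Mb). Chromosome 9 members covered 3.45% of its extent, also the highest share. The lowest densities were on chromosomes 15 (48 members, 0.508 per Mb), 8 (76, 0.602 per Mb) and 3 (91, 0.623 per Mb). Median length ran from 7368 bp on chromosome 10 to 10090 bp on chromosome 9.

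The share of D2-replicated regions that lacked a D4 peak differed between chromosomes. It was lowest on chromosomes 15 (69.6%, 48 of 69 regions), 4 (70.4%), 8 (71.7%) and 5 (71.9%), and highest on chromosomes 18 (92.9%), 3 (91.9%), 19 (90.8%) and 1 (89.6%). Among regions over 5 and up to 20 kb the order was partly kept. There, chromosomes 6 and 8 (77.8% each), 4 (80%) and 11 (80.2%) were lowest, and chromosome 1 (96.2%) highest, with chromosome 15 at 82.4% of 34 regions. Over the 19 chromosomes the density of members and that of regions with a D4 peak were related with Spearman 0.504. The share lacking a D4 peak and the density of female MEF peaks were related with Spearman -0.67. These are descriptions, as all chromosomes come from the same libraries.

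Within chromosomes members leaned to the far end. Mouse autosomes have the centromere at their start. Of the 2676 members, 404 (15.1%) lay in the first of 3 equal parts of the extent, 959 (35.8%) in the middle one and 1313 (49.1%) in the last. The regions with a D4 peak leaned further, with 10.1%, 26.2% and 63.8%. The pattern was not uniform. Chromosome 5 had 119 of its 133 members in the last part, chromosome 4 had 178 of 214 and chromosome 8 had 67 of 76. By contrast, chromosome 9 had 193 of 279 and chromosome 14 had 97 of 120 in the middle part, and the last part of chromosome 14 held 1. Chromosome 16 had 68 of 107 in the first part.

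**Figure D4:**
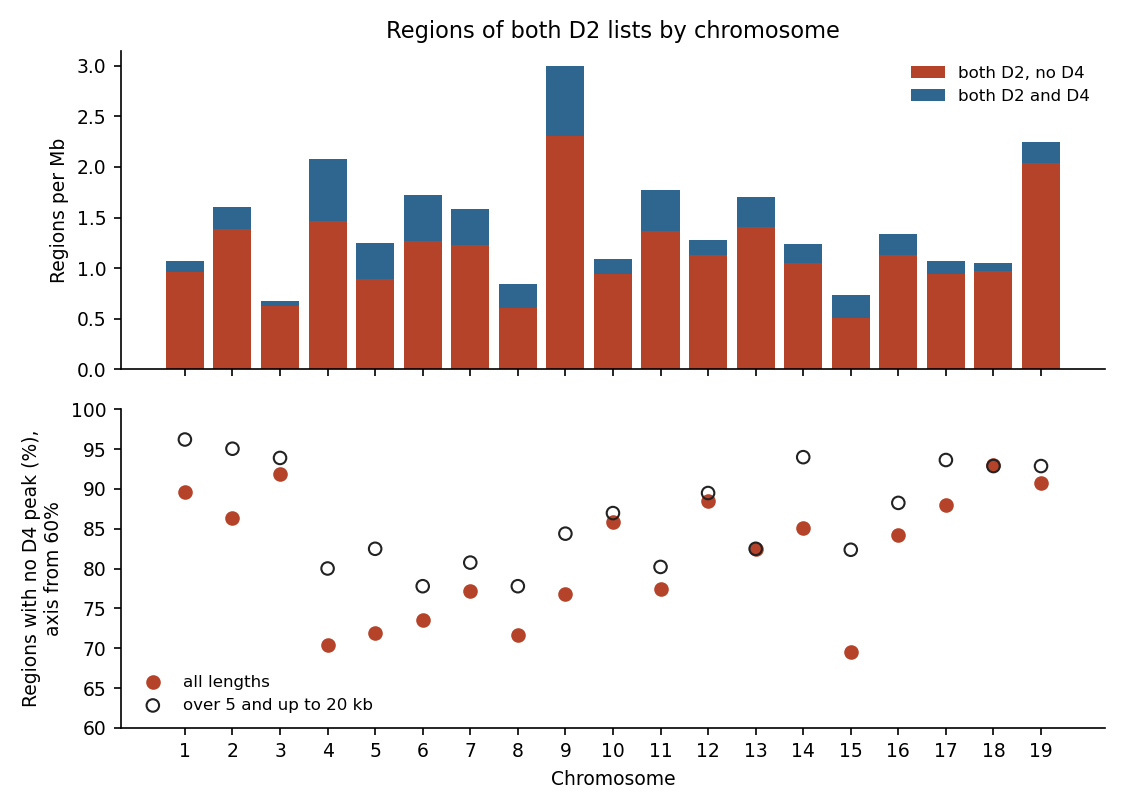
Top, number of D2-replicated regions per Mb on each autosome, split into members (red) and regions with a D4 peak (blue). Bottom, percentage of D2-replicated regions that had no D4 peak, for all lengths (filled) and for regions over 5 and up to 20 kb (open); the axis starts at 60%. Chromosomes 4, 5, 8 and 15 lie near 70% for all lengths.

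Members lay in groups. The nearest other member was a median of 21.1 kb away (quartiles 5.75 and 87.2 kb), and 77.5% of members had another within 100 kb. Only 137 had none within 1000 kb. Grouping is not particular to members. The 646 regions of both D2 lists with a D4 peak are fewer, and lay a median of 35.1 kb from the next of their class. The figure rests on the full lists, weak peaks included. With all lists restricted to a −log10 q of at least 2 the share within 100 kb was 6.31% of 222 members, and with the 1148 strongest peaks of each list it was 6.60% of 212. Fewer regions also lie farther apart by their number alone, and the part this plays was not tested. Neighbours were linked into chains when less than 100 kb apart, which gave 1083 chains, 601 of them of 1 member. The 30 chains of 10 or more members held 405 members (15.1%).

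The largest chain was on chromosome 9, from 49337722 to 50072008, with 22 members that covered 308 kb of 734 kb. A second one on that chromosome, from 66329737 to 67182314, had 20 members over 853 kb and includes the 146 kb member named above. Chains of 20 members also lay on chromosome 4, from 123631050 to 124337356 (352 kb of 706 kb covered), and on chromosome 5, from 149452230 to 150372759 (277 kb of 921 kb). The fifth, on chromosome 8 from 91521834 to 92142332, had 18 members. Regions of a single D2 list lay between the members of each chain, 15 to 23 per chain.

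D4 peaks were present in some of these groups and absent from others. The first chromosome 9 chain held 3 merged D4 peaks between its members, and the second 1, as did the chromosome 5 chain. The chromosome 4 and chromosome 8 chains held 0. Of the 30 chains of 10 or more, 17 had a D4 peak inside and 13 had none. The 13 included chr12:80771985-81442483, where 13 members covered 78.4% of 670 kb, chr17:34385169-34724678 (13 members, 51.4% of 340 kb) and chr7:120081350-120414248 (11 members, 57.2% of 333 kb). The chromosome 4 chain held 5 members with a female MEF peak, where the other 4 largest held 0. Their chromosomes differ likewise. Of all members, 21.5% had a female MEF peak on chromosome 4, against 1.08%, 3.01% and 1.32% on chromosomes 9, 5 and 8.

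Over all members the nearest D4 peak was a median of 264 kb away (quartiles 65.3 and 1136 kb). A D4 peak lay within 10 kb of 138 members (5.16%) and within 100 kb of 853 (31.9%), and 738 had none within 1000 kb. A region of both D2 lists with a D4 peak lay within 100 kb of 719 members (26.9%). The share of members with a D4 peak within 100 kb was highest on chromosomes 5 (50.4%), 9 (46.6%) and 6 (44.3%) and lowest on chromosomes 3 (4.40%) and 17 (10%).

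The members closest to a D4 peak, and regions with the fewest D4 bases, are listed here without a comparison of their D2 values. Both sets are small, and the D2 and D4 lists together chose them. The members closest to a D4 peak were chr2:28075892-28078826, 37 bp from one, chr14:26397233-26417331 (45 bp), chr11:114207119-114215371 (92 bp), chr16:97594247-97603402 (102 bp) and chr4:139818770-139826489 (206 bp). Their fold enrichments were 2.53 to 2.68 in replicate 1 and 2.75 to 2.98 in replicate 2. Among regions of both D2 lists with a D4 peak, 12 held only 169 bp of D4 peak, the least of all. A merged region includes its D4 peak whole, so 169 bp is the length of D4 peak. How far it overlaps D2 peaks was not measured. The first 5 by chromosome included chr1:193006581-193010650 (2.80 and 2.81 at D2, 3.00 in D4 replicate 1) and chr9:14185129-14187811 (2.71 and 2.96 at D2, 3.43 in D4 replicate 1). The others were chr2:76485537-76486271 (3.02 and 2.93), chr9:61280659-61384307 (2.68 and 2.90) and chr9:97003665-97017124 (3.46 and 3.38). Each of the 5 had its D4 peak in replicate 1 alone.

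The MEF lists were not used to choose the members, and few members were called in them. A female MEF peak overlapped 101 members (3.77%, exact 95% binomial interval 3.08 to 4.57%), against 5.61% of all merged EpiLC regions. A male MEF peak overlapped 42 (1.57%, interval 1.13 to 2.12%), against 1.14% of all. Intervals cover counting error only and treat regions as independent, which neighbours are not. There is 1 MEF library of each sex, so no test across samples was possible.

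The female MEF share of members lay below that of every class of regions with a D4 peak. It was 3.43% in the 7252 regions of 1 D2 list only (interval 3.03 to 3.88%), which are shorter (median 2803 bp against 8880 bp) and were not matched to members by length. It was 18.9% of the 646 regions of both D2 lists and a D4 list (15.9 to 22.1%), 21.3% of the 268 of 1 D2 list and a D4 list (16.5 to 26.7%) and 16.7% of the 719 of D4 without D2 (14.0 to 19.6%). The share in regions of both D2 lists with a D4 peak was 5.00 times that of members. It was also the higher one in each of 14 alternative settings, by 4.67 to 22.2 times where a ratio could be formed. The settings reuse the same libraries and are not separate observations. The ratio of 22.2 comes from 222 members and 50 regions with a D4 peak. The difference was not tested. The level of both shares moved with the peaks used. With the 1148 strongest peaks of each EpiLC list they were 1.42% in members and 10.5% in regions with a D4 peak. With all lists at a −log10 q of at least 2 they were 0.450% and 10%. At 3 they were 0% of 32 members and 23.1% of 13 regions with a D4 peak, which are few.

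The male MEF share moved in part with it. It was 6.66% of the regions of both D2 lists with a D4 peak (4.86 to 8.86%), above the 1.57% of members. In the other 2 classes with a D4 peak it was 0.746% and 0.556%, below that of members, while the female share was high in both. When regions under a male peak were left out, a female peak overlapped 100 of 2634 members and 107 of 603 regions with a D4 peak (17.7%). Background of the pulldown in EpiLCs was not measured.

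The difference was smaller when length or chromosome was made alike, each taken separately. What part either plays was not tested. In members the female share was 0% up to 2 kb (0 of 199, with an exact upper limit of 1.84%), 1.89% from 2 to 5 kb, 3.63% from 5 to 10 kb, 4.62% from 10 to 20 kb, 6.74% from 20 to 50 kb and 4.21% above 50 kb. In regions with a D4 peak the same classes gave 6.25% (1 of 16), 6% (3 of 50), 10.7%, 17.7%, 21.8% and 26.8%. Intervals of the female share overlapped up to 10 kb and were apart above that. Above 50 kb a male MEF peak overlapped 18.95% of regions with a D4 peak (29 of 153) and 7.37% of members (7 of 95). In members of that length the female share was the lower one (4 of 95). From 2 to 50 kb the male share was below the female one in both kinds of regions, at most 3.35%. The part that background plays in the long classes was not tested. The length of a region with a D4 peak includes that peak, so the classes are alike in merged length only. Weighted to the length classes of members, the female share in regions with a D4 peak became 13.5%, in place of 18.9%. Weighted to the chromosomes of members it became 14.3%. The weightings were not combined and have no interval. Some weighted classes are small, as chromosomes 18 and 3 held 6 and 8 regions with a D4 peak. The male share became 3.04% when weighted by length and 6.21% by chromosome.

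**Figure D5:**
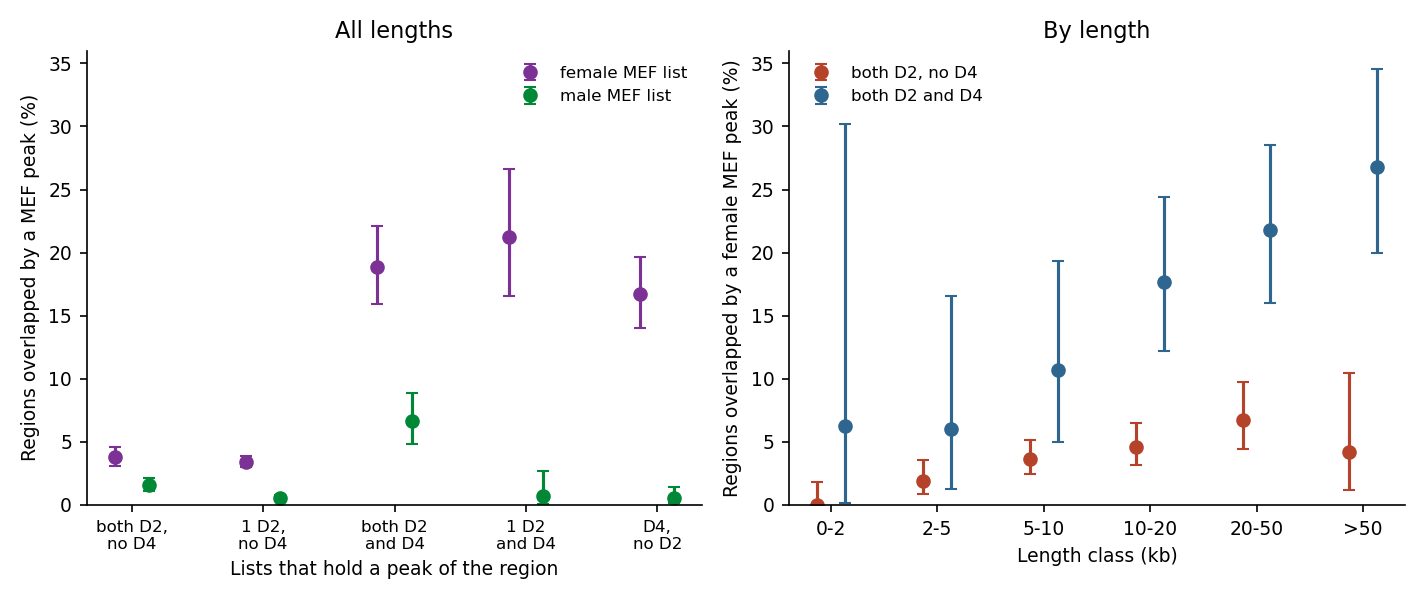
Left, percentage of merged EpiLC regions overlapped by a peak of the female (purple) or male (green) MEF list, by the EpiLC lists that hold a peak. Right, percentage overlapped by a female MEF peak in 6 length classes, for members (red) and for regions of both D2 lists with a D4 peak (blue). Bars are exact 95% binomial intervals. Above 10 kb the 2 classes of regions do not overlap in their intervals.

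Chromosome 4 held the most members called in female MEFs. It had 46 of the 101 members with a female MEF peak, 21.5% of its 214 members, and also 213 of the 1020 female MEF peaks. Without chromosome 4 the share of members was 2.23% (55 of 2462), and that of regions with a D4 peak was 12.9% (72 of 556). On chromosome 4 alone it was 21.5% against 55.6%. Chromosomes 2 and 11 followed with 18 and 11 members. Chromosome 15, where the share was 10.4% of 48 members, had 104 female MEF peaks. No member had one on chromosomes 1, 3, 10, 13, 14, 18 and 19. Of these, 10 and 19 hold no female MEF peak, and 227 members lie there.

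Members near a D4 peak were more often called in female MEFs. The share was 10.9% of the 138 members within 10 kb of a D4 peak (interval 6.21 to 17.3%), 6.57% from 10 to 100 kb, 2.76% from 100 to 1000 kb and 1.22% of the 738 farther away (0.559 to 2.30%). Without chromosome 4 the values were 5.74%, 4.02%, 1.62% and 0.849%, in the same order. The male share was 3.62%, 2.10%, 1.01% and 1.49% in these classes, so it also was highest nearest to D4 peaks but did not keep falling. Median length in the 4 classes was 9492, 10063, 8782 and 7562 bp.

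The overlap with female MEFs came from 94 peaks, 9.22% of that list, with fold enrichments from 2.75 to 3.48 (median 2.94). They covered a median of 68.9% of the member they touched. Members with a female MEF peak were longer (median 11757 bp) than those with neither MEF peak (8640 bp), and their D2 fold enrichments were close to those of the rest (2.62 against 2.63 in replicate 1, 2.82 against 2.83 in replicate 2). The male overlap came from 42 peaks, 12.9% of the male list, and those members had a median length of 17085 bp.

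The first 4 members by female MEF fold enrichment lay under 1 female MEF peak of 3.48 on chromosome 11. They were chr11:118505707-118530960, chr11:118544210-118560446 and chr11:118564721-118588799, which were covered whole, and chr11:118829021-118835940, of which 4420 bp were covered. They share that peak and are 1 observation in the MEF list. The last of them was the only member that overlapped both MEF lists, with 836 bp under a male peak of fold enrichment 2.92. Its D2 values were 2.54 and 2.68. The fifth was chr2:180020443-180030618, where the female MEF value was 3.46 over 1774 bp and the D2 values were 2.69 and 3.22.

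Genes were not assigned to the members. The coordinates are on the build mm9, and the gene and promoter tables at hand are on GRCm38, so positions of genes and sequences of the regions were not used here.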

How the data were processed

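The submitters' processing notes name the build mm9, the peak caller MACS2 2.2.7.1, the aligner Bowtie2 2.2.9, and Picard, Trim Galore 0.4.1, bedtools 2.26.0 and SAMtools 1.9. Their settings, and the input behind each list, are not given in the sources used here. Each of the 6 deposited lists is 1 pulldown library with no header, in broad-peak layout. Its deposited columns are start and end, a score (10 times the −log10 q, rounded down, not used), a fold enrichment (linear ratio), a −log10 p and a −log10 q. The authors' lists carry no read counts. The 5 inputs were not analysed here.

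Lists were merged and compared in Python 3.11.15 with pandas 2.3.3, NumPy 2.4.6 and SciPy 1.17.1, after tests on simulated lists. An overlap is at least 1 bp. Peaks that touch without a shared base were kept apart. Coordinates are printed from 1. A member's value in a list is that of its highest peak. Shares have exact (Clopper-Pearson) 95% intervals, except for the members with a fold enrichment of at least 3 in both D2 lists. There a limit of 3 counts was taken for a count of 0. No test was made, since the lists chose the members and each MEF group is 1 library.

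Named regions are the first 10 by mean rank of fold enrichment, the 10 longest, the 5 first by female MEF fold enrichment and those in both MEF lists. Also named are the 5 largest chains, the 5 members closest to a D4 peak, and 5 regions with the fewest D4 bases, taken by chromosome. Members and rules were chosen with earlier results of these data known. Other thresholds, merging rules and left-out libraries were tried as alternatives. The planned gene, start-site, gene-list and sequence descriptions were not run, as the gene tables are on another build.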

Additional observations from a re-analysis of the deposited data

How the results depend on the processing

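The number of members follows the lists. It was 222 and 32 at a −log10 q of at least 2 and 3 in all lists, 212 with equal numbers of peaks, and 4122 when counted as segments covered in both D2 lists. Leaving out 1 library gave 2811 to 7370 members, with 6662 and 7370 where a single D2 list was required. The female MEF share was 0.450%, 0% and 1.42% under the first 3 of these settings and 2.23% without chromosome 4 (chosen after seeing the data), and 3.53 to 4.59% without 1 library. The male MEF share was 0.901%, 0% and 0.472% under the same 3 settings, 0.801% over segments, and 0.781 to 1.82% without 1 library. The cause was not tested. At a −log10 q of at least 3, 0 of 32 members leaves wide limits.

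The other alternatives left these 3 results within 1.5 times (count) or within their binomial interval (shares): gaps of up to 5 kb joined, 50% of the shorter peak shared, no D4 peak within 10 kb, male overlap left out (count and female share only, as the male share has no value there) and, added after seeing the data, touching peaks joined (2677 members). Median length ran from 2612 to 10259 bp and the share within 100 kb of another member from 6.25 to 90.0%. Alternatives on genes and start sites were not run. Depth is unknown and limits what a missing D4 peak can show. No paired analysis by replicate number was made, as no result comes from a test.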
